A study of Mus musculus with 19 samples.

Results

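The 7 genes described here, Upf1, Upf2, Upf3a, Upf3b, Smg1, Smg5 and Smg6, encode core factors of nonsense-mediated mRNA decay. They were chosen by name, as the Upf and Smg genes of the decay pathway with which TRIM71 is reported to work. All 7 were present among the 21685 genes of the deposited expression table, and all 7 were among the 14988 genes expressed highly enough to be tested.

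Nonsense-mediated decay removes mRNAs on which ribosomes stop too early, and it also sets the level of many normal mRNAs. UPF1 is the RNA helicase at its centre. UPF2, with UPF3A or UPF3B, connects UPF1 to the exon junction complex that splicing leaves on an mRNA. SMG1 is the kinase that phosphorylates UPF1. Phosphorylated UPF1 is bound by SMG5, which acts in recruiting mRNA-degrading enzymes and in removing the phosphate, and by SMG6, an endonuclease that cuts the mRNA. The mRNAs of several of these factors are themselves substrates of the pathway. In embryonic stem cells the pathway is known to affect differentiation, and TRIM71, an RNA-binding ubiquitin ligase, has been reported to act with decay factors on the mRNA of the cell cycle inhibitor Cdkn1a. LIN28A is an RNA-binding protein that blocks the maturation of let-7 microRNAs.

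The measurements were mRNA sequencing of male C57BL/6 mouse embryonic stem cells, grown in serum and leukaemia inhibitory factor and enriched for the stem cell antigen SSEA-1 with magnetic beads before RNA extraction. The 4 genotypes are named by the state of Trim71, then that of Lin28a. WT-WT cells (n = 4) carried floxed, unrecombined alleles of both genes. KO-WT cells (n = 4) lacked Trim71 and had the floxed Lin28a allele. WT-KO cells (n = 5) had floxed Trim71 and lacked Lin28a, and KO-KO cells (n = 5) lacked both genes. Trim71 mutation was induced by 500 nM 4-hydroxytamoxifen for 2 days, and the cells were cultured for at least 7 more days. The labels record this treatment in the same words for every library, and whether the analysed WT-WT and WT-KO cells received it is not given in the sources used here. The recombinase and the part of Trim71 removed are not given in the sources used here. Each Lin28a state came from its own pair of clones, 1 and E3 for intact and 1-4 and C1 for null. Clone and Lin28a state therefore cannot be told apart, whereas both Trim71 states were present in each clone. The fits held day terms but no clone term. WT-WT replicate 1 (day 1) and KO-WT replicate 1 (day 2) had no same-day library of the other genotype. The comparison of KO-WT with WT-WT was therefore not made wholly within clones. The values are log2 expression from which differences between harvest days had been removed before deposition. A further KO-WT library was the only one of its harvest day, so that its day difference could not be separated from its own values. As deposited, its values were the average of the remaining ones of its genotype, and it was left out. Read depth is unknown. Libraries of a genotype came from separate days and from 2 clones. Each harvest day held either clones 1 and 1-4 or clones E3 and C1, so day terms also take up differences between these sets. The p-values measure the spread left between cultures after day differences, and not that between days or clones.

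Expression of the targeted genes matched the labels in all 18 libraries. Trim71 differed by -1.31 ± 0.120 log2 units (SE) between KO-WT and WT-WT, and Lin28a by -1.65 ± 0.0752 between WT-KO and WT-WT. Each gene also differed with the state of the other: Lin28a was lower in KO-WT than in WT-WT by 0.28 (difference -0.28 ± 0.0812, limma adjusted p = 0.036), and Trim71 was higher after Lin28a loss in Trim71-intact cells (0.45 ± 0.111, 0.00431) and in Trim71-null cells (0.38 ± 0.111, 0.0111). Stem cell markers were high throughout, with a summed level of 30518 to 45229 linear units per library over the 7 listed genes, 6 of them tested. Fibroblast markers were low, at 69.5 to 125 units over the 4 of 8 listed genes that had values, 3 of them tested. In every comparison below the tests used limma over all 14988 tested genes with harvest day in the fit, and genes with a Benjamini-Hochberg adjusted p-value under 0.05 are termed called. A log2 difference is given with its standard error.

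The promoters of 4 members are shown because their mRNAs fell or rose together in the comparisons below: Smg1 and Upf2 were low in every mutant genotype, and Smg5 and Smg6 were high in both Lin28a-null genotypes. Each sequence is the 250 bases before the gene's start in the RefSeq promoter table for mouse build GRCm38.p6, printed 5′ to 3′ on the gene's strand. The build used for the deposited values is not given in the sources used here. Capitals mark matches, on either strand, to the GC box GGGCGG and to the CCAAT box CCAAT. Overlapping GC boxes are merged into 1 capital run.

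Smg1, chr7:118243638-118243887, minus strand: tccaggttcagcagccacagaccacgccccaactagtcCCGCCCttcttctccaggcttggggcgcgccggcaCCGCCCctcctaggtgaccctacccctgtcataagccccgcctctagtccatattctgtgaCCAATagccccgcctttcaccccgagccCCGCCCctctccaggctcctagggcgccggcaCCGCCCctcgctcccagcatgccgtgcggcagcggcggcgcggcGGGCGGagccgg

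Upf2, chr2:5951219-5951468, plus strand: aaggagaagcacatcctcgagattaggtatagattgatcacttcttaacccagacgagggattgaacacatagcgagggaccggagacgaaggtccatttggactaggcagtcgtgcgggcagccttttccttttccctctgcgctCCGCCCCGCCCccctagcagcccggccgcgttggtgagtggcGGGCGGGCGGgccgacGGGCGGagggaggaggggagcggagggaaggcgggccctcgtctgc

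Smg5, chr3:88336010-88336259, plus strand: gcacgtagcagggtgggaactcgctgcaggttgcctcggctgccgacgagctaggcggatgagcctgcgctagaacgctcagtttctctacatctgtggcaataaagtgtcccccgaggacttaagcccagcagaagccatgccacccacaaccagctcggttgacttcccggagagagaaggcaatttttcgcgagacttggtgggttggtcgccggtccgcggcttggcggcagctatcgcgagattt

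Smg6, chr11:74925604-74925853, plus strand: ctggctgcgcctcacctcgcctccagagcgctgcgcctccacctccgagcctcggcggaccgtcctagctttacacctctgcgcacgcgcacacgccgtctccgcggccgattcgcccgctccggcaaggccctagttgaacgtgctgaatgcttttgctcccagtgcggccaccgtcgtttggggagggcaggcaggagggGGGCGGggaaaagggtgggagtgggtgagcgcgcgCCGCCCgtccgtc

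All 7 members had an entry in that table. The Smg1 and Upf2 promoters each held 5 GC boxes, counted with overlaps, and the Smg1 promoter also held 1 CCAAT box. The Smg6 promoter held 2 GC boxes and the Smg5 promoter held neither motif. Of the members not shown, Upf1, which was also high in both Lin28a-null genotypes, held 2 GC boxes and no CCAAT box. Upf3a held 1 GC box and 1 CCAAT box, and Upf3b held 1 GC box and 2 CCAAT boxes. A GC box was found in 32.9% of 27025 mouse promoters of the same length and a CCAAT box in 34.5%. The 4 promoters were GC-rich, at 70.8% for Smg1, 64% for Upf2, 59.6% for Smg5 and 70.4% for Smg6, against a median of 52% over all promoters. These matches describe the letters of the windows and no binding was measured.

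The let-7 microRNAs that LIN28A restrains share a seed, bases 2 to 8, which is in capitals in the RefSeq mature sequences of let-7a and let-7g.

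mmu-let-7a-5p: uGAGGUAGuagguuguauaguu

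mmu-let-7g-5p: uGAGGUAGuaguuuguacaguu

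The 7-base match to this seed, CTACCTC, was in none of the 7 members' 3′ untranslated regions (0 of 7), while 9.52% of 12362 untranslated regions of tested genes held it. The shorter match TACCTC was found in 1 member, Smg1, whose untranslated region of 4233 bases is long. Of 820 genes with untranslated regions of like length, 60.1% held that 6-base match.

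Before any mutation the members differed in level. Per kilobase of transcript, the WT-WT log2 level was highest for Smg5 (8.26) and Upf1 (7.89), followed by Upf3b (7.51) and Upf3a (7.28). It was lowest for the kinase Smg1 (6.94), the endonuclease Smg6 (6.77) and the bridging factor Upf2 (6.75). The lengths used were 15557 bases for Smg1, 5848 for Smg6, 5174 for Upf2, 4618 for Upf1, 4448 for Smg5, 2344 for Upf3b and 2057 for Upf3a, each from the annotated coding transcript with the longest coding sequence. Counts spread over unlisted isoforms would shift these levels. All values below are deposited log2 levels of single genes, without division by length.

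**Figure D1:**
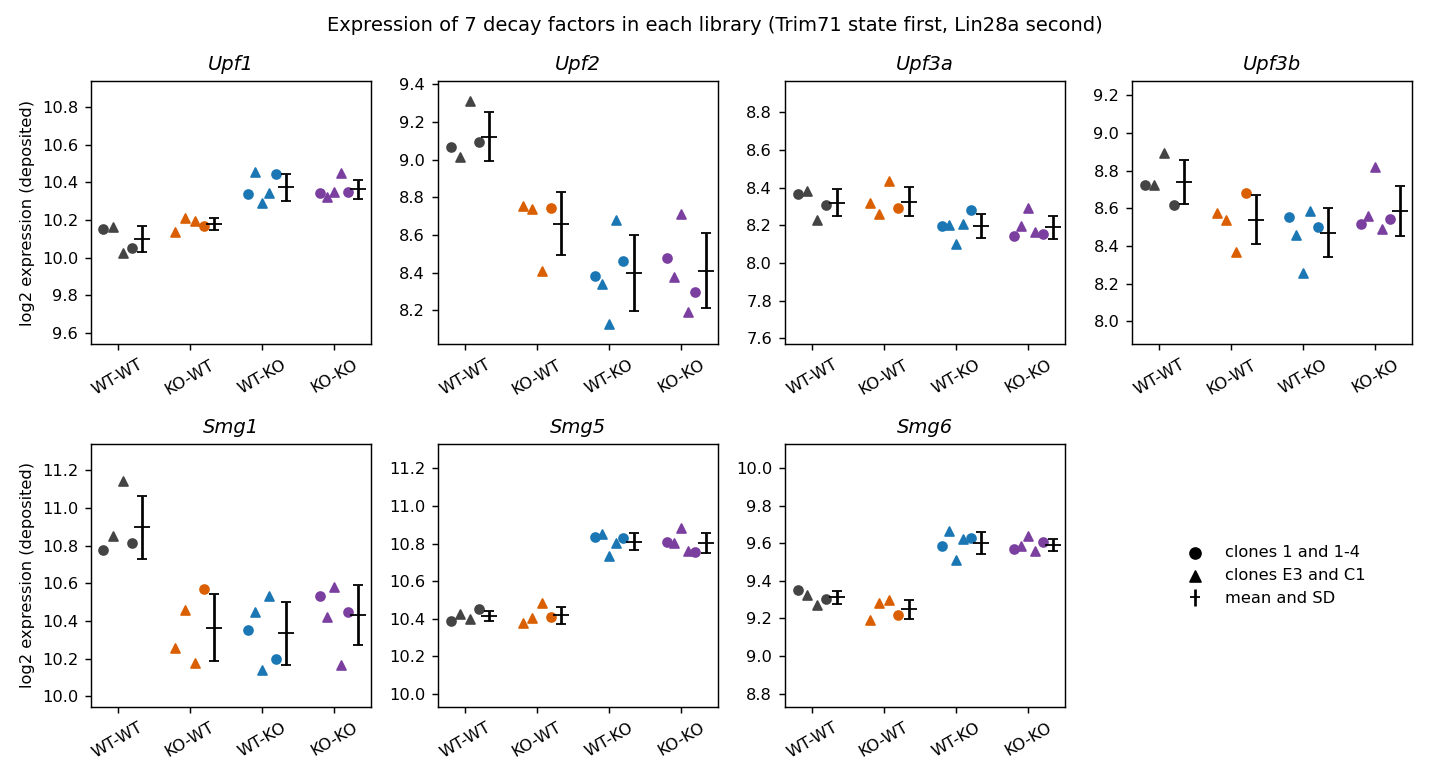
Deposited log2 expression (vertical axis, spanning 1.4 units in each panel) of the 7 decay factors in each of 18 libraries by genotype (horizontal axis); circles are clones 1 and 1-4, triangles clones E3 and C1, and bars the mean and SD. Smg1 and Upf2 are highest in WT-WT, while Smg5, Smg6 and Upf1 separate the Lin28a-null from the Lin28a-intact libraries.

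The first comparison addressed whether the decay factors depend on Trim71 while Lin28a is present. Of the 7 members, 2 were called between KO-WT and WT-WT, both lower, against 11.2% of all tested genes called, 4.74% higher and 6.43% lower. These were the kinase Smg1, at 0.69-fold its WT-WT level, and Upf2, at 0.73-fold. The other 5 members were not called. The median difference of the 7 members was -0.06, beside -0.0046 over all tested genes.

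Smg1 was at 10.78, 10.85, 11.15 and 10.81 in the WT-WT libraries and at 10.26, 10.46, 10.18 and 10.57 in the KO-WT libraries. The genotypes did not overlap, and the highest WT-WT library was replicate 3, of day 4. The Smg1 difference was -0.53 ± 0.120 (limma adjusted p = 0.0137). Upf2 was at 9.07, 9.02, 9.31 and 9.09 in WT-WT and at 8.75, 8.74, 8.41 and 8.74 in KO-WT. These ranges did not overlap either, and 3 of the KO-WT libraries lay close together while replicate 3, again of day 4, was lower. The Upf2 difference was -0.46 ± 0.129 (limma adjusted p = 0.0337). Groups that do not overlap were found for 2 of 7 members and for 28.2% of tested genes.

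Both genes were lower in all 3 same-day pairs of KO-WT and WT-WT libraries. For Smg1 the pair differences were -0.40 on day 3, -0.97 on day 4 and -0.24 on day 5. For Upf2 they were -0.28, -0.90 and -0.35. The day 4 pair was thus the widest for both. With day 4 left out, an alternative chosen after seeing the data, Smg1 was still called (difference -0.37, limma adjusted p = 0.0306) and Upf2 was not (-0.30, limma adjusted p = 0.105). Smg1 also lost its call without WT-WT replicate 3 (difference -0.41, limma adjusted p = 0.0601) and without KO-WT replicate 3 (-0.44, 0.0588). Upf2 lost its call without any of 5 libraries: WT-WT replicate 3 (limma adjusted p = 0.129), KO-WT replicate 3 (0.143), WT-WT replicate 4 (0.0779), KO-WT replicate 2 (0.0551) and WT-KO replicate 1 (0.0519). In each pair of clones taken alone neither gene was called. The Smg1 difference was -0.71 (limma adjusted p = 0.124) in clones E3 and C1 and -0.19 (0.177) in clones 1 and 1-4, and the Upf2 difference was -0.54 (0.196) and -0.32 (0.112).

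Upf3b, the partner of UPF2 at the exon junction, was at 8.73, 8.72, 8.90 and 8.62 in WT-WT and 8.58, 8.54, 8.37 and 8.68 in KO-WT. The ranges overlapped, and the difference of -0.20 ± 0.0957 was not called (limma adjusted p = 0.177). Its paralog Upf3a, a weaker activator of decay in many assays, differed by 0.0047 ± 0.0617 with a 95% confidence interval from -0.13 to 0.14. Upf1 differed by 0.08 ± 0.0528 (limma adjusted p = 0.343), Smg5 by 0.0029 ± 0.0451 (0.974) and Smg6 by -0.06 ± 0.0473 (0.382). The intervals of these 3 ran from -0.03 to 0.19 for Upf1, from -0.09 to 0.10 for Smg5 and from -0.17 to 0.04 for Smg6. For Upf1, Smg5 and Smg6 a change as large as that of Smg1 or Upf2 thus lay outside the interval.

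In Lin28a-null cells, none of the 7 members was called after Trim71 loss (0 of 7 by limma, and 0 of 7 at an unadjusted p under 0.05), against 8.38% of all tested genes, 4.26% higher and 4.12% lower. The largest differences were 0.11 ± 0.0820 for Upf3b (limma adjusted p = 0.446) and 0.10 ± 0.103 for Smg1 (0.636). Upf2 differed by 0.01 ± 0.111 with an interval from -0.22 to 0.25. The interval for Smg1 ran from -0.12 to 0.31, so its lower bound lay above the decrease of 0.53 seen with Lin28a intact (difference -0.53). Upf1, Upf3a, Smg5 and Smg6 differed by -0.01, -0.0063, -0.0087 and -0.0099. Their intervals ran from -0.108 to 0.0835, from -0.118 to 0.106, from -0.0904 to 0.0730 and from -0.0956 to 0.0758. No member's libraries were separated by genotype here, while 12.6% of tested genes were.

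Same-day pairs of the Lin28a-null genotypes did not share a direction. On day 3, KO-KO was above WT-KO by 0.59 for Upf2, 0.56 for Upf3b and 0.44 for Smg1. On day 4 the same genes were below it, at -0.49 for Upf2, -0.10 for Upf3b and -0.37 for Smg1. On days 3 and 4 the 3 genes thus shared a direction, which was opposite between these days. On days 1, 2 and 5 they did not share one: Smg1 differed by 0.18, -0.03 and 0.25, Upf2 by 0.10, 0.03 and -0.16, and Upf3b by -0.04, 0.10 and 0.04.

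Whether the effect of Trim71 loss differed between the Lin28a states was tested as an interaction, for which 0.0200% of tested genes were called, and no member was (0 of 7 by limma, 3 of 7 at an unadjusted p under 0.05). The interaction was 0.63 ± 0.158 for Smg1 (unadjusted p = 0.00104, limma adjusted p = 0.182), 0.47 for Upf2 (limma adjusted p = 0.247) and 0.31 for Upf3b (0.286). Smg1 thus stood at the 99.7th percentile of the interaction over all genes without passing the adjusted threshold. After removal of GC and length trends the Smg1 interaction was 0.375 (limma adjusted p = 0.311). Without the day term it passed (limma adjusted p = 0.022), in a fit that ignores the degrees of freedom used by the removed day effect. A difference between the Lin28a states in the response of Smg1 or Upf2 to Trim71 loss was therefore not established.

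**Figure D2:**
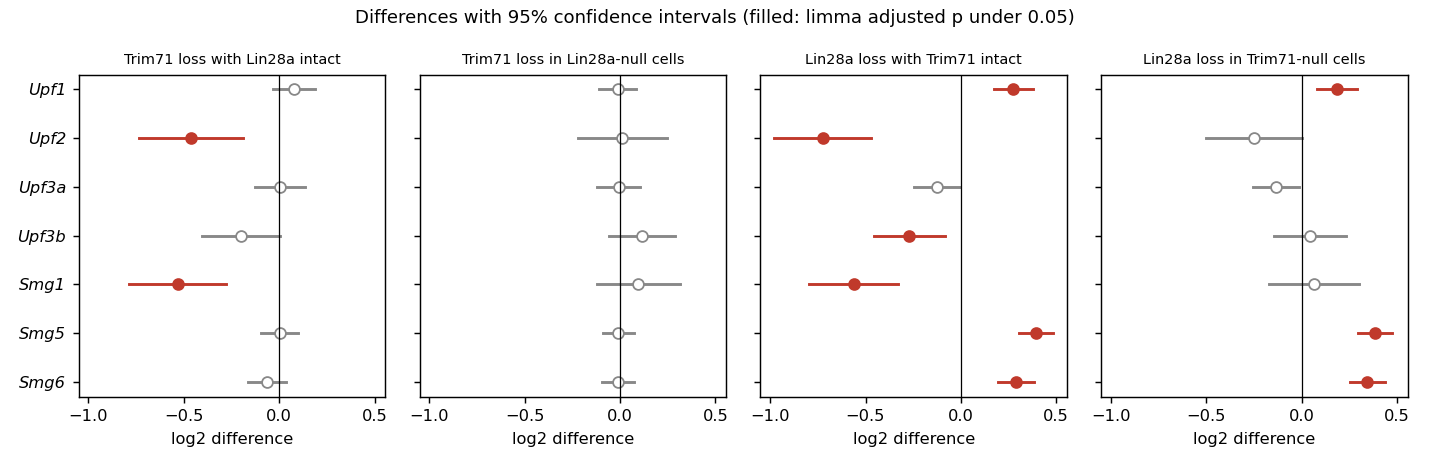
Log2 differences of the 7 decay factors (horizontal axis) in 4 comparisons, with 95% confidence intervals; filled red points passed a limma adjusted p of 0.05 and open grey points did not. Smg1 and Upf2 are below 0 after Trim71 loss with Lin28a intact and after Lin28a loss with Trim71 intact, no gene is filled for Trim71 loss in Lin28a-null cells, and Smg5, Smg6 and Upf1 are above 0 in both panels of Lin28a loss.

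The comparison of Lin28a loss used the same WT-WT libraries as the first. It gave called differences in both directions. Between WT-KO and WT-WT, 6 of 7 members were called, 3 higher and 3 lower, against 42.4% of tested genes called, 20.3% higher and 22.0% lower. The factors that act on phosphorylated UPF1, Smg5 and Smg6, and Upf1 itself were higher. The kinase Smg1 and the bridging factors Upf2 and Upf3b were lower. The same 6 members had libraries that did not overlap between the genotypes, as did 40.8% of tested genes.

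Smg5 was at 10.39, 10.42, 10.40 and 10.45 in WT-WT and at 10.83, 10.85, 10.73, 10.80 and 10.83 in WT-KO. The genotypes were far apart relative to the spread within them, and the difference was 0.39 ± 0.0417 (1.31-fold, limma adjusted p = 1.99e-06). Smg6 was at 9.35, 9.33, 9.27 and 9.30 in WT-WT and at 9.59, 9.66, 9.51, 9.63 and 9.63 in WT-KO. It rose by 0.29 ± 0.0438 (1.22-fold, limma adjusted p = 7.6e-05), with every WT-KO library above every WT-WT library. Upf1 was at 10.15, 10.17, 10.02 and 10.05 against 10.34, 10.45, 10.29, 10.34 and 10.45. Its rise of 0.28 ± 0.0488 (1.21-fold) had a limma adjusted p of 0.000311. All 3 genes were higher on each of the 4 days that held both genotypes.

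Upf2 was at 8.38, 8.34, 8.12, 8.68 and 8.46 in WT-KO, all below the lowest WT-WT library at 9.02. The difference of -0.72 ± 0.120 (0.61-fold, limma adjusted p = 0.000167) was the widest of any member in any comparison shown here. Smg1 was at 10.35, 10.45, 10.14, 10.53 and 10.20 in WT-KO, below the WT-WT range that began at 10.78. It fell to 0.68-fold (difference -0.56 ± 0.111, limma adjusted p = 0.000746). Upf3b was at 8.55, 8.46, 8.26, 8.58 and 8.50 in WT-KO, with a difference of -0.27 ± 0.0886 (limma adjusted p = 0.022). The lowest WT-WT library for Upf3b, 8.62, was only just above the highest WT-KO library. The Upf3b call was lost without WT-KO replicate 3 (difference -0.19, limma adjusted p = 0.0798), without WT-WT replicate 3 (-0.20, 0.104), in clones E3 and C1 (-0.38, 0.0671), in clones 1 and 1-4 (-0.14, 0.107) and in days with all 4 genotypes (-0.30, 0.0819). After removal of GC and length trends it was lost as well, with the Upf3b difference down to -0.12 (limma adjusted p = 0.151). Upf3a was not called, at -0.12 ± 0.0571 (limma adjusted p = 0.0932), although it was lower on each of the 4 shared days. It passed with day 4 left out (-0.16, 0.0396) and without WT-WT replicate 3 (-0.17, 0.042).

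Without Trim71, loss of Lin28a again went with higher Smg5, Smg6 and Upf1, and these 3 of 7 members were called, all higher, against 42.8% of tested genes called, 20.8% higher and 22.0% lower. Smg5 was at 10.38, 10.40, 10.48 and 10.41 in KO-WT and at 10.81, 10.80, 10.89, 10.76 and 10.75 in KO-KO. The difference of 0.38 ± 0.0417 (limma adjusted p = 2.69e-06) was close to that with Trim71 intact. Smg6, at 9.19, 9.28, 9.30 and 9.22 against 9.57, 9.59, 9.64, 9.56 and 9.61, rose by 0.34 ± 0.0438 (limma adjusted p = 1.33e-05). Upf1 went from 10.14, 10.21, 10.19 and 10.17 to 10.34, 10.32, 10.35, 10.45 and 10.35, a rise of 0.18 ± 0.0488 (limma adjusted p = 0.00617). The Upf1 call was lost in clones E3 and C1 (limma adjusted p = 0.0688) and in clones 1 and 1-4 (0.127). The libraries of the 3 genes did not overlap between KO-KO and KO-WT, as for 40.7% of tested genes.

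The 3 genes that were lower after Lin28a loss in Trim71-intact cells were not called in Trim71-null cells. Upf2 was at 8.48, 8.38, 8.71, 8.19 and 8.30 in KO-KO and overlapped KO-WT. Its difference of -0.25 ± 0.120 (limma adjusted p = 0.103) passed the threshold with day 4 left out (-0.29, 0.0206), in clones 1 and 1-4 alone (-0.37, 0.0293), in the fit of these genotypes alone (-0.27, 0.00761), after removal of GC and length trends (-0.30, 0.0107), without KO-KO replicate 3 (-0.36, 0.019) and without KO-WT replicate 3 (-0.36, 0.0243). Smg1 was at 10.53, 10.42, 10.58, 10.17 and 10.45 in KO-KO, with a difference of 0.07 ± 0.111 (limma adjusted p = 0.663). Upf3b differed by 0.04 ± 0.0886 (0.717) and Upf3a by -0.13 ± 0.0571 (0.0686), which passed without KO-KO replicate 3 (-0.17, 0.0308). The difference between this comparison and the one with Trim71 intact is the interaction given above, which passed for no member.

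Cells that lacked both genes differed from WT-WT in 5 of 7 members, against 45.6% of tested genes, 21.0% higher and 24.6% lower. The same 5 members had libraries that did not overlap, as did 44.5% of tested genes. Smg5 was higher by 0.39, Smg6 by 0.28 and Upf1 by 0.26, with limma adjusted p-values of 2.23e-06, 9.58e-05 and 0.000427. Upf2 (difference -0.71, limma adjusted p = 0.000185) and Smg1 (-0.47, 0.00288) were lower, and with day 4 left out the Smg1 difference was -0.31 (0.0067). Upf3b (-0.16, 0.164) and Upf3a (-0.13, 0.075) were not called. Upf3a passed with day 4 left out (-0.16, limma adjusted p = 0.0406) and without KO-KO, WT-WT or KO-WT replicate 3 (0.0317, 0.0329 and 0.0468), and Upf3b passed without KO-KO replicate 3 (-0.24, 0.0255).

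Between the single mutants, WT-KO was above KO-WT in Smg5 by 0.39, in Smg6 by 0.35 and in Upf1 by 0.20, and these 3 of 7 members were called (limma adjusted p = 1.47e-06, 7.69e-06 and 0.00354), against 46.1% of tested genes, 23.6% higher and 22.5% lower. These 3 also had libraries that did not overlap, as did 42.6% of tested genes. The Upf1 call was lost in clones E3 and C1 (limma adjusted p = 0.0761) and in clones 1 and 1-4 (0.051). Upf2 was not called, at -0.26 (limma adjusted p = 0.084). It passed with day 4 left out (-0.43, 0.00176), after removal of GC and length trends (-0.31, 0.00761), in clones 1 and 1-4 (-0.34, 0.0318), and without KO-WT replicate 3 (-0.38, 0.0189), WT-KO replicate 4 (-0.37, 0.0169) or KO-KO replicate 3 (-0.27, 0.0423). Upf3a passed without WT-KO replicate 5 (-0.16, limma adjusted p = 0.0485).

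Over the 4 genotypes the order of levels differed by gene. For Smg1, WT-WT (10.90) stood above KO-KO (10.43), KO-WT (10.37) and WT-KO (10.33), and of the neighbours in this order only WT-WT and KO-KO were separated by a call. For Upf2, WT-WT (9.12) was followed by KO-WT (8.66), KO-KO (8.41) and WT-KO (8.40), with a call between the first and the second only. For Smg5, WT-KO (10.81) and KO-KO (10.80) did not differ beyond their spread, nor did KO-WT (10.42) and WT-WT (10.42), and the call lay between the pairs. Upf1 and Smg6 had the same division between the Lin28a states. No neighbours differed by a call for Upf3a, between 8.19 and 8.32, or for Upf3b, between 8.47 and 8.74.

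Several other measures moved with the Lin28a state. Trophectoderm markers summed to 4449 to 5922 linear units in WT-WT and to 1100 to 1328 in WT-KO, and 4 of 6 tested were called lower in that comparison. The keratin genes had the largest falls in mean log2 level: Krt8 from 10.96 to 6.74, Krt18 from 10.80 to 6.60 and Krt7 from 8.18 to 4.99. Gata3 went from 5.60 to 4.13. Eomes (5.30 and 5.43) and Tfap2c (9.69 and 9.82) were not lower and were not called. Of 5 tested primitive endoderm markers, 5 were lower, and sums over all 7 listed were 262 to 361 units in WT-WT and 80.6 to 104 in WT-KO. Stem cell markers were higher in 5 of 6. Of 6 neural markers 4 were higher and 1 lower, and of 3 fibroblast markers 2 were lower. These counts are of called genes, beside 42.4% of all tested genes called in that comparison, 20.3% higher and 22.0% lower. In these bulk samples a change in the share of cells of a type and a change in RNA per cell cannot be told apart. The part of these cells and of the clones in the decay factor differences was not tested.

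The members also differed in the base composition of their transcripts. Upf3b (42.5% GC), Upf2 (43.5%) and Smg1 (44.9%) lay below the lower quartile of tested coding genes (46.1%), Upf3a (52.9%) and Smg6 (51.9%) near the median (51.0%), and Smg5 (56.5%) and Upf1 (57.9%) above the upper quartile (55.5%). Over the 7 members the rank correlation between GC content and the log2 difference was 0.82 for Trim71 loss with Lin28a intact, -0.86 for Trim71 loss in Lin28a-null cells and 0.71 for Lin28a loss with Trim71 intact. Over 14724 genes the corresponding values were 0.51, 0.01 and 0.24. For loss of both genes they were 0.71 over the members and 0.24 over these genes, and for the interaction -0.86 and -0.51. The signs were opposite for Lin28a loss in Trim71-null cells and between the single mutants. In each of these the rank correlation was 0.57 over the members and -0.10 over these genes. These are descriptions across genes, which share the same libraries and are not independent.

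**Figure D3:**
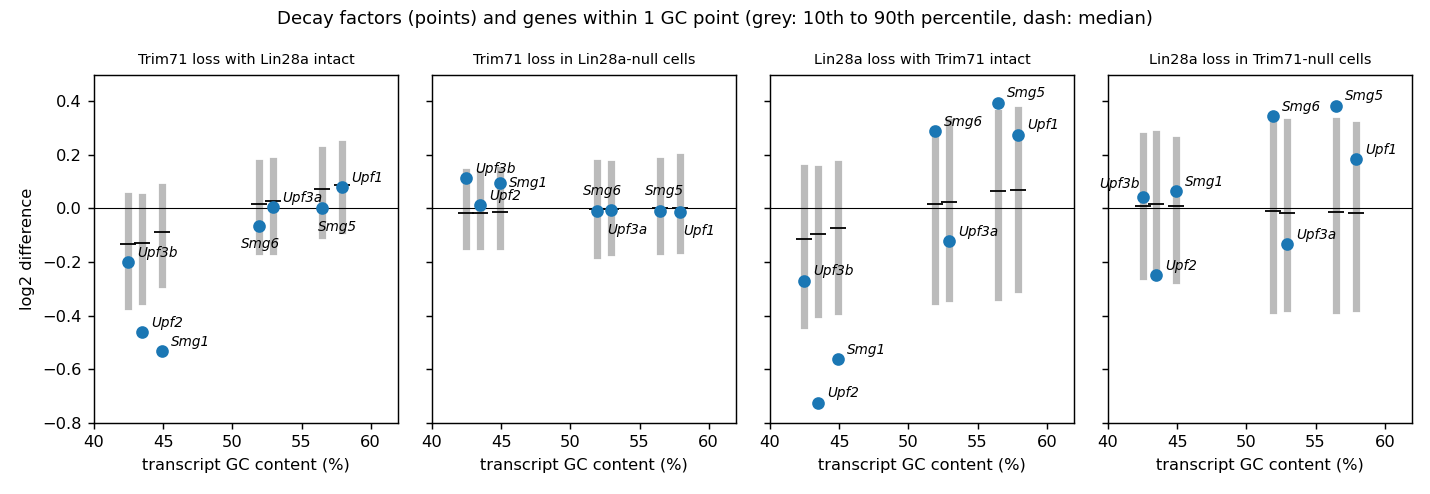
Log2 difference (vertical axis) of each decay factor (blue point) against its transcript GC content in percent (horizontal axis) in 4 comparisons; grey bars span the 10th to the 90th percentile of the genes within 1 percentage point of its GC content and dashes mark their median. Smg1 and Upf2 lie below the grey bars after Trim71 loss with Lin28a intact and after Lin28a loss with Trim71 intact, and Smg5 and Smg6 lie above or near the upper ends of theirs in both panels of Lin28a loss.

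Genes of like GC content give the scale of this relation. In Trim71 loss with Lin28a intact, the 1034 genes within 1 percentage point of Smg1 had a median difference of -0.09 and a 10th percentile of -0.28, against -0.53 for Smg1. For Upf2 the corresponding 946 genes had a median of -0.13 and a 10th percentile of -0.35, against -0.46. Both members therefore lay below 90% of the genes of their GC content, while Upf3b (-0.20) lay within the range of its neighbours. These neighbours were matched for GC content only and not for length, and the Smg1 transcript is 15557 bases long. A trend with length is therefore not part of this scale. After the GC and length trends of the libraries were removed, Smg1 kept its call (difference -0.32, limma adjusted p = 0.00981) and Upf2 did not (-0.31, limma adjusted p = 0.0555). In Lin28a loss with Trim71 intact Smg1 and Upf2 were again below the 10th percentile of their neighbours (-0.38 and -0.39), and Smg5 (0.39) was above the 90th percentile of its own (0.36).

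The GC trend also varied between libraries of a genotype. The rank correlation of a library's deviation from the gene means with GC content was lowest in WT-WT replicate 3 (-0.46) and highest in KO-WT replicate 3 (0.42), the day 4 libraries in which Smg1 and Upf2 were at their highest among WT-WT and their lowest among KO-WT. It was negative in all 4 WT-WT libraries (-0.46 to -0.20) and positive in all 4 KO-WT libraries (0.03 to 0.42). Among the Lin28a-null libraries it was 0.24 in WT-KO and -0.17 in KO-KO on day 3. On day 4 it was -0.25 in WT-KO and 0.30 in KO-KO. These are the days on which Upf2, Upf3b and Smg1 differed in opposite directions between these genotypes. Within genotypes, over 18 libraries, this trend correlated with Upf2 at r = -0.92, with Smg1 at -0.89 and with Upf3b at -0.79, but with Smg5 at -0.21 and with Smg6 at -0.06. Its part in the Trim71 results, beyond the fit after GC removal, was not tested.

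The members varied together over libraries to different degrees. After genotype means were removed, Upf2 and Upf3b correlated at r = 0.86, Upf2 and Smg1 at 0.77, and Upf3b and Smg1 at 0.74 over the 18 libraries, which share their day adjustment and their scaling. With the GC and length trends taken out the values were 0.71, 0.65 and 0.63. These 3 genes did not then stand apart from the others, since Upf2 correlated with Smg5 at 0.67 and Upf3b with Smg5 at 0.66, from 0.30 for each before. Smg5 and Smg6 correlated at 0.97 over all libraries and at 0.66 within genotypes. Upf1 followed both Smg5 and Smg6 over all libraries (0.89 for each), and within genotypes it correlated with Smg6 at 0.60 and with Smg5 at 0.19 (0.80 and 0.40 with GC and length trends taken out). Upf3a, which was called in no comparison, correlated with Smg5 at 0.69 and with Smg6 at 0.67 within genotypes and with Upf3b, its paralog, at 0.14.

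**Figure D4:**
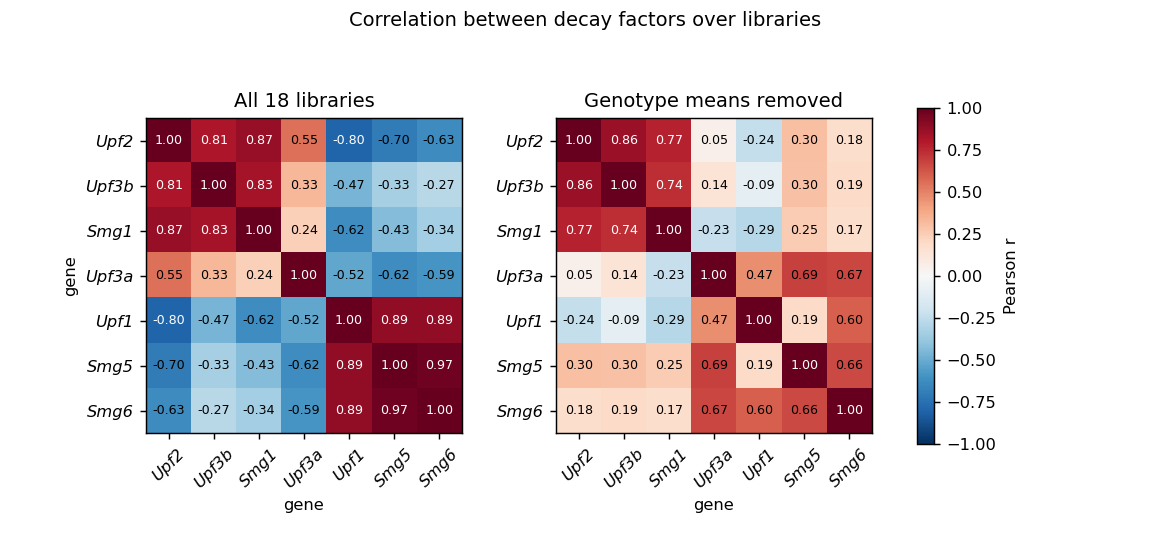
Pearson correlation of the deposited log2 values between each pair of decay factors (both axes list the 7 genes) over 18 libraries, left as deposited and right after the mean of each genotype was removed; red is positive and blue negative. Upf2, Upf3b and Smg1 keep r of 0.74 to 0.86 in the right panel, and the pair of Smg5 and Smg6 goes from 0.97 to 0.66.

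The genes whose values over the 18 libraries were most like each member's were found among the other 14981 tested genes. For Smg1 they were Nipbl, the cohesin loader (r = 0.98), and the zinc finger gene Zfp445 (0.98). For Upf2 they were Cenpe, a kinetochore motor (0.98), and Cops2, a subunit of the COP9 signalosome (0.98). Smg5 and Smg6 had the same nearest gene, Fasn, which encodes fatty acid synthase (0.99 for each), followed by Ppp1r10 for Smg5 (0.99) and Rrp1b for Smg6 (0.98). Upf1 was most like Atf6b (0.96) and Zfpl1 (0.96), Upf3b like Ndufs1 (0.94) and Zfp748 (0.93), and Upf3a like Kcmf1 (0.91) and Lsm6 (0.87). The values for Upf3a were the lowest of the 7. These r values are the highest among 14981 genes, with the differences between genotypes kept. Over the 18 libraries the GC trend itself correlated with Smg1 at -0.92, with Upf2 at -0.81 and with Upf3b at -0.80. For Upf1, Smg5, Smg6 and Upf3a it was 0.47, 0.22, 0.14 and -0.11. Shared regulation with the genes named was not tested.

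The remaining pathway genes were taken from lists written from general knowledge. Among 9 other decay factors, 2 were called higher and none lower after Trim71 loss with Lin28a intact. Of all tested genes, 4.74% were called higher and 6.43% lower. The 2 were Smg9, a partner of SMG1 (difference 0.17, limma adjusted p = 0.0289), and Ruvbl2, an ATPase that acts with its relative RUVBL1 (0.22, 0.00543). After GC and length removal Smg9 was not called (0.07, 0.389) and Ruvbl2 was, at 0.13 (0.0226). In Lin28a-null cells 1 of these 9 was called, beside 8.38% of all tested genes: the helicase gene Dhx34, lower by 0.25 (difference -0.25, limma adjusted p = 0.0202). The list's median was -0.0023 in the first comparison, beside -0.0046 over all tested genes. Lin28a loss with Trim71 intact went with 5 of the 9 higher and 1 lower, beside 20.3% higher and 22.0% lower of all tested genes, among them Dhx34 (0.39, limma adjusted p = 0.000257) and Smg9 (0.31, 3.89e-05) higher and the cap-binding subunit gene Ncbp2 (-0.24, 0.00641) lower. In Trim71-null cells 3 were higher and 1 lower, beside 20.8% and 22.0% of tested genes, with Nbas at 0.30 (limma adjusted p = 0.001) and Smg8, a partner of SMG1, at 0.21 (0.00251).

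Of 10 exon junction complex genes, none was called in either comparison of Trim71 loss, beside 11.2% and 8.38% of all tested genes. The counts were 0 of 10 by limma and 1 of 10 at an unadjusted p under 0.05 in each comparison. Lin28a loss with Trim71 intact went with 3 higher and 1 lower, or 4 of 10 beside 42.4% of all tested genes, including Pym1, which encodes a factor that takes the complex apart (0.24, limma adjusted p = 0.00133), and Magohb, a core subunit gene (-0.19, 0.0362). Magohb lost its call under 12 of 30 alternatives, with a difference of -0.06 (limma adjusted p = 0.49) after GC and length removal. In Trim71-null cells 4 were lower and none higher, beside 42.8% of all tested genes called, with Magoh at -0.25 (limma adjusted p = 0.00512) and Rbm8a, its dimer partner, at -0.13 (0.0419). Rbm8a lost its call under 17 of 30 alternatives, 10 of them with a single library left out, and was at -0.09 (limma adjusted p = 0.177) after GC and length removal. Of 6 genes for termination and poly(A) binding, none was called after Trim71 loss with Lin28a intact, beside 11.2% of all tested genes. In Lin28a-null cells 1 was called, beside 8.38%: Gspt1, which encodes the release factor eRF3a (-0.19, limma adjusted p = 0.0128). Pabpc4, a poly(A)-binding protein gene, was higher after Lin28a loss in both Trim71 states (0.36 and 0.27, limma adjusted p = 3.44e-06 and 7.06e-05).

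Among 16 tested decapping and exonuclease genes of 18 listed, 3 were called after Trim71 loss with Lin28a intact, beside 11.2% of tested genes. The 5′ exonuclease gene Xrn1 (-0.37, limma adjusted p = 0.048) and Ttc37 (-0.43, 0.0225) were lower, and Skiv2l, whose product works with that of Ttc37 in the cytoplasmic exosome pathway, was higher (0.17, 0.0438). With day 4 left out none of the 3 was called: the Xrn1 difference was -0.17 (limma adjusted p = 0.194) and that of Ttc37 -0.26 (0.0818), while that of Skiv2l was 0.17 (0.0889). After GC and length removal Xrn1 (-0.20, limma adjusted p = 0.0891) and Skiv2l (0.10, 0.249) were not called and Ttc37 was (-0.24, 0.0356). In Lin28a-null cells none of the 16 was called (0 by limma, 1 at an unadjusted p under 0.05), beside 8.38% of all tested genes. The decapping cofactor gene Dcp1b was higher after Lin28a loss in both Trim71 states (0.65 and 0.76, limma adjusted p = 1.36e-05 and 2.66e-06), the widest difference of this list. Xrn1 was higher after Lin28a loss in Trim71-null cells (0.39, limma adjusted p = 0.00697).

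Of 30 transcripts reported to be decay-sensitive, 2 were higher and 2 lower after Trim71 loss with Lin28a intact (4 of 30, beside 11.2% of all genes), and 1 was higher and 2 lower in Lin28a-null cells (beside 8.38%). The list's median differences were 0.02 and -0.01. Cdkn1a, which encodes the cell cycle inhibitor p21, was higher in both Lin28a states: it was at 8.94 to 9.09 in WT-WT, 9.24 to 9.53 in KO-WT, 8.28 to 8.73 in WT-KO and 8.77 to 8.96 in KO-KO. The differences were 0.40 ± 0.0889 (limma adjusted p = 0.0123) and 0.38 ± 0.0761 (0.00571), and neither was called in clones E3 and C1 alone (0.239 and 0.174). The first was also lost without KO-WT replicate 3 (limma adjusted p = 0.053). Asns, the asparagine synthetase gene, was lower in both Lin28a states (-0.24 and -0.18, limma adjusted p = 0.0163 and 0.0308). Gadd45b was higher (0.25, limma adjusted p = 0.0411) and the splicing regulator gene Ptbp2 lower (-0.46, 0.0138) with Lin28a intact, and Gadd45g was lower (-0.44, 0.0289) in Lin28a-null cells. Gadd45b lost its call under 18 of 30 alternatives, 11 of them with a single library left out, and after GC and length removal it was at 0.16 (limma adjusted p = 0.203) and Ptbp2 at -0.29 (0.0272). Of the 30 alternatives, 13 ended the call of Asns and 9 that of Gadd45g in Lin28a-null cells. Genes of this list thus went in both directions in each comparison.

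After Lin28a loss with Trim71 intact, 10 of the 30 were higher and 10 lower, beside 42.4% of all tested genes called, and in Trim71-null cells 10 were higher and 8 lower, beside 42.8%. The stress-response genes Gadd45b (-0.88 and -1.15), Gadd45g (-0.84 and -1.13) and Atf3 (-0.64 and -0.61) were lower in both Trim71 states. Trib3 (0.64 and 0.59) and Atf4 (0.44 and 0.35), genes of the integrated stress response, were higher in both. The limma adjusted p-values of these differences ran from 3.15e-09 for Gadd45b in Trim71-null cells to 0.000457 for Atf3 in Trim71-null cells. Annotated isoforms of the nonsense-mediated decay class existed for 3 of the 7 members, Smg1, Smg5 and Smg6, and for 28.4% of 12598 tested coding genes. The deposited values are per gene and do not separate such isoforms.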

How the data were processed

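mRNA sequencing values of 21685 genes in 19 libraries were used as the authors deposited them. Per the submitters' processing notes, CASAVA 1.8, STAR and DESeq2 were named, without roles; genome build and annotation are not given in the sources used here. The deposited values were taken to be log2 normalised expression, as their range (-0.71 to 16.3) and library sums show. Day differences were already absent (largest day term 1.7e-08). KO-WT replicate 5 matched the average of the remaining KO-WT replicates within 1.5e-08 and was left out.

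Genes at or above log2 of 10 in at least 4 libraries (14988) were fitted with limma 3.58.1 in R 4.3.3, with 1 mean per genotype, a term per day, 10 residual degrees of freedom and eBayes with trend, and adjusted by Benjamini-Hochberg. The fit was run on simulated data with noise independent between genes and a shift of 1 log2 unit in some genes of KO-WT. Smaller shifts and trends shared within a library were not simulated. Linear units are 2 raised to the deposited value. Transcript GC content, lengths and untranslated regions came from GENCODE gene models; promoters and microRNAs came from RefSeq (GRCm38.p6). GC and length trends were removed per library as a smooth spline with 5 degrees of freedom.

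The members and gene lists were chosen with earlier results of these data known. All 7 members were named in every comparison; list genes were named where called after Trim71 loss, with at most 4 more per list and Lin28a comparison by size. A gene of the list of other decay factors is not reported here and was left out of its counts. The alternatives were the day term, the filter, scaling, GC content and length, clones, the libraries in the fit, days, the variance trend and each library.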

Additional observations from a re-analysis of the deposited data

Results flagged for a closer look

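In 3 of 28 groups of 4 or 5 libraries, 1 per genotype and member, a single library lay far from the others, where about 1 in 20 would do so by chance. Upf2 was at 8.41 in KO-WT replicate 3, of day 4, and between 8.74 and 8.75 in the other 3 KO-WT libraries. Upf1 was at 10.45 in KO-KO replicate 4, of day 4, and between 10.32 and 10.35 in the other 4 KO-KO libraries. Upf3b was at 8.82 in KO-KO replicate 3, of day 3, and between 8.49 and 8.56 in the others. KO-WT replicate 3 and KO-KO replicate 4 also had the highest rank correlations with GC content (0.42 and 0.30), and KO-KO replicate 3 had the lowest of its genotype (-0.17). The part of this trend in the 3 values was not tested.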

How the results depend on the processing

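Of 49 member differences, 19 were called, and 14 of these kept their call under each of the alternatives run, while no called difference changed sign. The 5 that lost a call under at least 1 alternative were Smg1 and Upf2 after Trim71 loss with Lin28a intact, Upf3b after Lin28a loss with Trim71 intact, and Upf1 after Lin28a loss in Trim71-null cells and between the single mutants. Shifts of scaling between libraries changed no member's call. Read depth is unknown, so no limit from counting can be given. In clones 1 and 1-4 KO-WT has a single library, which is assumed to vary like the other groups.

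After Trim71 loss with Lin28a intact the count of members called went from 2 to 1 after removal of GC and length trends, to 1 without the variance trend (where Upf2 had a limma adjusted p of 0.0525) and to 1 with day 4 left out. It went to 0 in clones E3 and C1, 0 in clones 1 and 1-4, 0 in the fit of the genotypes compared alone and 0 in days with all 4 genotypes, and between 0 and 2 with each library left out in turn. In the fit of the genotypes compared, the Smg1 difference was -0.54 (limma adjusted p = 0.125) and the Upf2 difference -0.51 (0.123); in days with all 4 genotypes the adjusted p-values were 0.0648 and 0.0961. In the order of these 7 settings the tested genes called went from 1674 to 1113, 1246, 699, 10, 344, 30 and 474, and to between 528 and 1978 with 1 library left out. Trim71 loss in Lin28a-null cells kept 0 members called, while genes called went from 1256 to 153 in clones E3 and C1, 287 in clones 1 and 1-4, 794 in the genotypes compared and 217 in days with all 4 genotypes. Members called after Lin28a loss in Trim71-null cells ranged from 3 to 5 with 1 library left out. In clones E3 and C1 the genes called were 2323 of 6351 for Lin28a loss with Trim71 intact, 3595 of 6412 in Trim71-null cells, 2668 of 6834 for loss of both genes and 4238 of 6915 between the single mutants; in clones 1 and 1-4 they were 2293 for Lin28a loss in Trim71-null cells and 3436 between the single mutants. The 3 genes of the interaction went to 0 or 1 in most settings.

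Harvest day pairs the libraries by the labels and is the replicate block of the reported fits. Without this block, members called went from 6 to 7 for Lin28a loss with Trim71 intact and from 3 to 4 in Trim71-null cells. They went from 5 to 6 for loss of both genes, from 3 to 5 between the single mutants and from 0 to 1 for the interaction (Smg1). Genes called went from 1674 to 4219 for Trim71 loss with Lin28a intact, from 1256 to 2618 in Lin28a-null cells and from 3 to 673 for the interaction. Upf3a passed without the block after Lin28a loss with Trim71 intact (limma adjusted p = 0.0314) and in Trim71-null cells (0.02). It also passed for loss of both genes (0.0232) and between the single mutants (0.0246), where Upf2 passed as well (0.0408). With libraries centred on a trimmed mean, the split for loss of both genes went from 3143 higher and 3691 lower to 3833 and 3011; after GC and length removal it was 3936 and 2975, and for Lin28a loss with Trim71 intact it went from 3049 and 3302 to 3901 and 2829.

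Differences that were not called changed sign as follows, and the cause was not tested. After GC and length removal, Upf3a (-0.02358) and Smg5 (-0.04252) did so for Trim71 loss with Lin28a intact, Smg1 (-0.0935) for Lin28a loss in Trim71-null cells, Upf3b (0.01999) for loss of both genes, and Upf3a (0.01725), Smg5 (0.01388) and Smg6 (-0.006623) for the interaction. In clones 1 and 1-4 these were Upf3a (-0.0512), Upf3b (0.03111) and Smg5 (-0.008069) for Trim71 loss with Lin28a intact, Upf2 (-0.03347) in Lin28a-null cells, Upf3b (-0.1738) and Smg1 (-0.114) for Lin28a loss in Trim71-null cells, and Upf3b (-0.02948) for the interaction. With day 4 left out they were Upf3a (-0.0714) and Smg5 (-0.02624) with Lin28a intact, Upf3a (0.00233), Smg5 (0.000468) and Smg6 (0.00368) in Lin28a-null cells, and Upf3a (0.07373) and Smg5 (0.02671) for the interaction. In clones E3 and C1 they were Upf1 (0.01114), Upf3a (0.04992) and Smg5 (0.02007) for Trim71 loss in Lin28a-null cells, Smg1 (0.07703) between the single mutants, and Upf3a (0.01547) and Smg5 (0.01125) for the interaction. In days with all 4 genotypes they were Upf1 (0.02181), Upf2 (-0.0227), Upf3a (0.008478), Smg5 (0.01044) and Smg6 (0.01474) for Trim71 loss in Lin28a-null cells, Smg1 (-0.003237) for Lin28a loss in Trim71-null cells, and Smg5 (0.002262) for the interaction.

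With each library left out in turn, ranges that crossed 0 were, for Trim71 loss with Lin28a intact, -0.04868 to 0.03745 for Upf3a and -0.02815 to 0.01956 for Smg5. For Trim71 loss in Lin28a-null cells they were -0.04212 to 0.01822 for Upf1, -0.08928 to 0.1083 for Upf2, -0.0411 to 0.02189 for Upf3a, -0.03685 to 0.007255 for Smg5 and -0.04148 to 0.01358 for Smg6. For Lin28a loss in Trim71-null cells they were -0.04089 to 0.1067 for Upf3b and -0.01955 to 0.1603 for Smg1, and between the single mutants -0.1481 to 0.007895 for Upf3b and -0.1148 to 0.06213 for Smg1. For the interaction they were -0.04576 to 0.04233 for Upf3a and -0.0398 to 0.01948 for Smg5. Of 63 named differences of other decay genes, 26 kept their call under each of 30 alternatives and none changed sign; the 14 of Trim71 loss each lost their call under at least 1.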
